A study of Drosophila melanogaster with 6 samples.

Results

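The nuclear transfer RNA (tRNA) genes for methionine, cysteine, phenylalanine, tyrosine and tryptophan were followed in Drosophila S2R+ cells. Members were the genes of the deposited tables whose names begin with tRNA and 1 of iMet, Met, Cys, Phe, Tyr or Trp. The rule took 45 of 23932 genes, and no measured value entered it. The names set the initiator methionine tRNA (iMet-CAT) apart from the elongator (Met-CAT), which gave 6 anticodon groups out of 45 among nuclear tRNAs. There were 6 genes for iMet-CAT, 6 for Met-CAT, 8 for Phe-GAA, 10 for Tyr-GTA, 8 for Trp-CCA and 7 for Cys-GCA. S2R+ is a cell line derived from late fly embryos. The study set 3 libraries labelled dsFib, from cells given double-stranded RNA against Fib, beside 3 dsLacZ libraries, from control cells given double-stranded RNA against the bacterial lacZ gene. Total RNA was depleted of ribosomal RNA in every library and copied by TGIRT-seq, which uses a heat-stable reverse transcriptase that reads through folded and modified RNA. All 6 libraries thus came from the same line and had all received double-stranded RNA. The labels give neither the time after treatment nor whether the libraries of a group were separate cultures. A p-value here therefore measures how these libraries spread, which may be technical only.

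A tRNA carries its amino acid to the ribosome and reads the matching codon through its anticodon, written here in DNA letters as in the gene names. The initiator methionine tRNA is brought to the small ribosomal subunit by eIF2 and pairs with the start codon, whereas the elongator methionine tRNA reads the same AUG codon inside the coding sequence. Methionine and tryptophan are the amino acids with a single codon each, and the anticodons of the phenylalanine, tyrosine and cysteine tRNAs each read a pair of codons that end in U or C. Precursors of tyrosine tRNA carry an intron, which the TSEN endonuclease cuts out before the RtcB ligase joins the ends.

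The libraries held 11695250 to 15172052 estimated counts. Fib, the targeted gene, went against its label: it had 1312, 954.9 and 994.3 CPM (counts scaled to a common library total by TMM) in the libraries labelled dsFib and 213.9, 257.4 and 227.4 CPM in dsLacZ, 4.67-fold higher (adjusted p = 0.00103 by edgeR's quasi-likelihood test with Benjamini-Hochberg adjustment, 3 libraries each). Every direction given here is therefore that of the libraries labelled dsFib over dsLacZ. Whether the Fib counts include reads of the introduced double-stranded RNA was not tested, so they are not shown to be Fib messenger RNA alone. Nuclear tRNA took 14.9%, 13.4% and 15.3% of counts in the libraries labelled dsFib, and 10.8%, 18.3% and 11.1% in dsLacZ replicates 1, 2 and 3, so dsLacZ replicate 2 stood apart from the other dsLacZ libraries. Of 10 markers of S2R+ cells, 6 had a mean of at least 1 CPM, among them crq and Pxn. The 3 markers with the smallest p, fz, Hml and Col4a1, were higher without overlap, with log2 fold changes of 0.74, 0.89 and 0.25, and did not pass edgeR (adjusted p = 0.0624, 0.224 and 0.243). DESeq2 called fz (adjusted p = 0.00687). Of the 7 markers tested, 6 lay above 0, where 48.3% of all genes did, with Pxn at 0.02. The exception, crq, was lower without overlap (log2 fold change -0.21, edgeR adjusted p = 0.353). The part of these markers in the tRNA results was not tested. NimC1, eater and Sr-CI lay under 1 CPM, and He had no count in any library. At these low levels NimC1 and Sr-CI were also higher without overlap, and edgeR did not test them. Over all genes tested, 11% were higher and 12.1% lower without overlap. Of 12 markers of other cell types, 9 lay under 1 CPM. The 12 summed to 49.8 to 53.7 CPM in the libraries labelled dsFib and 47.6 to 61.4 CPM in dsLacZ, mostly from elav and shg. The neuron marker elav had a mean of 26.8 CPM, near the S2R+ markers srp (28.6) and fz (26.2). It was lower without overlap (log2 fold change -0.13, edgeR adjusted p = 0.627). The epithelial marker crb was higher without overlap (0.80, edgeR adjusted p = 0.322), and shg overlapped.

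The members lie on every large chromosome arm of the dm6 genome, with 14 genes on 2R, 13 on 3L, 9 on 3R, 5 on 2L and 4 on X. All 7 cysteine genes are on 3L, and 4 of them, Cys-GCA-1-1 to Cys-GCA-1-4 (3L, 3095737 to 3097590, plus strand), lie within introns of Cht7, which runs on the other strand. In all, 25 members lie in an intron of another gene, and 26 have another nuclear tRNA gene within 500 nucleotides. All 10 tyrosine genes have an annotated intron, of 20 to 113 nucleotides, and no other member has one. Without introns, every member is 72 or 73 nucleotides long, so levels in CPM compare the members at nearly equal mature length. Whether all members were captured and copied equally well was not tested. The deposited TPM was 2.35 to 3.06 times the CPM, with a single factor per library for all members, and so was not divided by each member's own length.

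The genes of an anticodon group differ in how far their reads can be told apart. The first number in a gene name marks the isodecoder, meaning genes given the same mature sequence by that naming, and the second number marks the gene copy. There were 13 isodecoders among the members. The deposited counts were split between copies: 43 or 44 members had a fractional count in each library, against 7.10% to 9.27% of all genes. Sums by anticodon or isodecoder do not depend on a split within them, whereas the value of a single copy does and is uncertain. Isodecoders with a single gene, such as iMet-CAT-2, Met-CAT-2 and Cys-GCA-3, also had fractional counts. Isodecoder values may therefore depend on a split with genes outside the isodecoder.

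By counts, the initiator was the highest of the 6 anticodon groups and tyrosine tRNA the lowest. The order was iMet-CAT, Met-CAT, Phe-GAA, Cys-GCA, Trp-CCA and Tyr-GTA in each of the 6 libraries. Among the 45 anticodon groups of nuclear tRNAs, iMet-CAT ranked 5 by its mean in the libraries labelled dsFib and 6 in dsLacZ. Met-CAT ranked 18 and 19, Phe-GAA 29 and 32, and Cys-GCA 38 and 36. Trp-CCA ranked 43 and Tyr-GTA 44 in both groups. Within a library the initiator was 3.41 to 4.18 times the elongator Met-CAT, Met-CAT was 1.82 to 2.17 times Phe-GAA, and Phe-GAA was 1.13 to 1.93 times Cys-GCA. The steps below were 2.32 to 3.00 times between Cys-GCA and Trp-CCA, and 1.51 to 1.70 times between Trp-CCA and Tyr-GTA. Across the libraries labelled dsFib no neighbouring pair in this order overlapped. Across dsLacZ libraries, Met-CAT overlapped Phe-GAA, Phe-GAA overlapped Cys-GCA and Trp-CCA overlapped Tyr-GTA, since all 6 groups were highest in dsLacZ replicate 2.

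The order did not follow the number of genes. Tyr-GTA, with 10 genes, had 16.2 CPM per gene in the libraries labelled dsFib and 14.8 in dsLacZ, while iMet-CAT, with 6 genes, had 1405 and 1167 CPM per gene. Met-CAT, also with 6 genes, had 355 and 313 CPM per gene. Phe-GAA had 134 and 119, Cys-GCA 92.6 and 99.4, and Trp-CCA 32.1 and 30.3 CPM per gene.

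**Figure D1:**
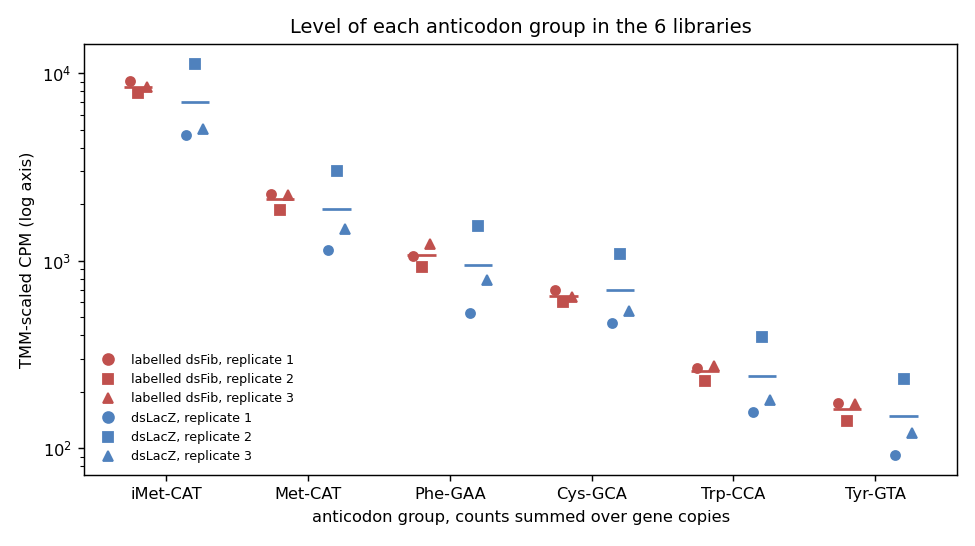
Level of each anticodon group (TMM-scaled CPM, log axis) summed over its gene copies, with 1 marker per library (red, labelled dsFib; blue, dsLacZ) and a bar at the mean of each group of 3. In all 6 anticodon groups dsLacZ replicate 2 (blue square) is the highest library and dsLacZ replicates 1 and 3 are the lowest, with the libraries labelled dsFib between them.

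No anticodon group of the 6 passed the test between the libraries labelled dsFib and dsLacZ, beside 1.98% of the 8064 features tested in the table summed by anticodon (edgeR's quasi-likelihood test, adjusted p under 0.05). At an unadjusted p of 0.05, which 16.8% of features passed, the count was also 0 of 6, and DESeq2 and limma-voom each called 0. The libraries overlapped for all 6, while 11.2% of features were higher and 12.2% lower without overlap. The median log2 fold change of the 6 groups was 0.15, with 5 of 6 above 0 where 48.1% of features were, against a median of 0.08 for the other nuclear tRNA groups and -0.01 for all features. In bulk RNA, fewer cells of a type and less RNA per cell cannot be told apart, so each value is a level over the whole culture.

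The initiator tRNA had 9061, 7820 and 8412 CPM in the libraries labelled dsFib, and 4708, 11256 and 5044 CPM in dsLacZ replicates 1, 2 and 3. The groups overlap, since 1 dsLacZ library lay above and the other 2 below all libraries labelled dsFib. The means were 8431 ± 621 and 7002 ± 3687 CPM (SD, n = 3 each), and the log2 fold change was 0.27 (SE 0.30, 95% interval -0.40 to 0.93, edgeR adjusted p = 0.708). The elongator Met-CAT had 2269, 1871 and 2244 CPM in the libraries labelled dsFib, and 1143, 3011 and 1479 CPM in dsLacZ. Its libraries overlap in the same way, with a log2 fold change of 0.18 (SE 0.30, 95% interval -0.49 to 0.85, edgeR adjusted p = 0.815).

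The initiator and the elongator can be set against each other within a library, which removes the scaling between libraries. The libraries labelled dsFib had 3.99, 4.18 and 3.75 initiator counts per elongator count, and dsLacZ had 4.12, 3.74 and 3.41. The ranges overlap, and the log2 ratio was 1.99 ± 0.08 in the libraries labelled dsFib and 1.90 ± 0.14 in dsLacZ (SD, n = 3 each), a difference of 0.08 (two-sided exact permutation test, p = 0.4, 0.64 after Benjamini-Hochberg adjustment over 8 within-library measures). With 3 libraries against 3 the smallest p of this test is 0.1.

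Among the aromatic amino acids, Phe-GAA had 1059, 930.2 and 1234 CPM in the libraries labelled dsFib, and 527.2, 1536 and 784.4 CPM in dsLacZ. Its log2 fold change was 0.18 (SE 0.32, 95% interval -0.53 to 0.88, edgeR adjusted p = 0.828). Again dsLacZ replicate 2 was the highest library and the groups overlap. Tyr-GTA had 173.7, 138.7 and 172.7 CPM in the libraries labelled dsFib, and 91.6, 232.2 and 120.0 CPM in dsLacZ, with a log2 fold change of 0.13 (SE 0.28, 95% interval -0.49 to 0.75, edgeR adjusted p = 0.867). Trp-CCA had 266.8, 228.0 and 275.7 CPM in the libraries labelled dsFib, and 155.7, 388.9 and 181.4 CPM in dsLacZ, with a log2 fold change of 0.09 (SE 0.29, 95% interval -0.55 to 0.73, edgeR adjusted p = 0.919). Both had the overlap seen for Phe-GAA.

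Cys-GCA alone of the 6 groups had a log2 fold change below 0, at -0.10 (SE 0.27, 95% interval -0.69 to 0.49, edgeR adjusted p = 0.893). Its levels were 700.9, 603.7 and 639.8 CPM in the libraries labelled dsFib, and 466.9, 1080 and 539.7 CPM in dsLacZ. The libraries labelled dsFib again lay between dsLacZ replicate 2 and the other dsLacZ libraries. The 95% intervals of the 6 groups all reach from below 0 to above 0, so neither direction is shown at this spread.

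In all 6 groups dsLacZ replicate 2 lay farthest from the other libraries of its group, and the counts of calls turned on it. This library also had the highest share of nuclear tRNA, 18.3% of its counts. Without that library, all 6 anticodon groups lay above 0 and 5 were called higher, all but Cys-GCA, beside 2.12% of 8301 features. The log2 fold changes were then 0.79 for iMet-CAT (edgeR adjusted p = 0.00392), 0.70 for Met-CAT (0.0164), 0.71 for Phe-GAA (0.0343), 0.61 for Tyr-GTA (0.0273), 0.61 for Trp-CCA (0.0149) and 0.36 for Cys-GCA (0.0903). Other nuclear tRNAs moved with them in that fit: 18 of 44 of the other anticodon groups and unnamed tRNA genes were called higher and 0 lower, and the median log2 fold change was 0.66 for the 6 groups against 0.51 for these others. Leaving out any other library gave 0 calls among the 6 groups. Without dsLacZ replicate 1, 5 of the 6 values lay below 0, with iMet-CAT at 0.06 as the exception.

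**Figure D2:**
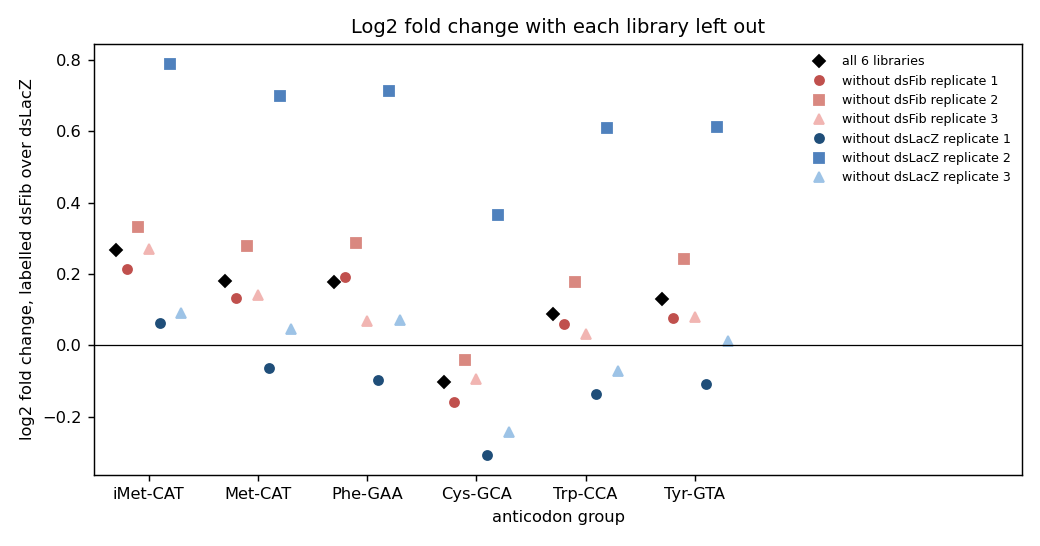
Log2 fold change (edgeR, libraries labelled dsFib over dsLacZ) of each anticodon group with all 6 libraries (black) and with each library left out. The value without dsLacZ replicate 2 is the highest in every group, from 0.36 for Cys-GCA to 0.79 for iMet-CAT, and the value without dsLacZ replicate 1 is the lowest.

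Shares of nuclear tRNA counts do not depend on how much tRNA a library held in all. The 45 members together took 8.75%, 9.06% and 8.09% of nuclear tRNA counts in the libraries labelled dsFib, and 7.37%, 8.57% and 7.62% in dsLacZ. The ranges overlap (difference 0.782 percentage points, exact permutation test p = 0.2, adjusted 0.533). The initiator made up most of this, with 5.86%, 6.11% and 5.25% in the libraries labelled dsFib and 4.89%, 5.51% and 4.71% in dsLacZ (exact permutation p = 0.2, adjusted 0.533).

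Of the 6 groups, cysteine tRNA was the 1 whose share did not overlap. How often this holds among the 39 other anticodon groups was not counted, so it cannot be called particular to cysteine tRNA. It took 0.453%, 0.472% and 0.399% of nuclear tRNA counts in the libraries labelled dsFib, and 0.485%, 0.529% and 0.505% in dsLacZ. All 3 libraries labelled dsFib lay below all 3 dsLacZ libraries, with a difference of -0.0648 percentage points between the means. The p of 0.1 by the exact permutation test was the smallest possible, and it came to 0.533 after adjustment, so the difference did not pass. With each library left out the difference was -0.0801 to -0.0436 percentage points. As a share of all counts of a library, in place of nuclear tRNA counts, Cys-GCA differed by -0.0042 percentage points (exact permutation p = 1).

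The other shares overlapped. Met-CAT took 1.47%, 1.46% and 1.40% in the libraries labelled dsFib and 1.19%, 1.47% and 1.38% in dsLacZ (exact permutation p = 0.4). Phe-GAA took 0.685%, 0.727% and 0.769% in the libraries labelled dsFib and 0.548%, 0.752% and 0.733% in dsLacZ (exact permutation p = 0.7). Trp-CCA averaged 0.174% ± 0.0035 in the libraries labelled dsFib and 0.174% ± 0.0148 in dsLacZ (SD, n = 3 each, exact permutation p = 1). Tyr-GTA averaged 0.110% ± 0.0025 and 0.107% ± 0.0103 (SD, n = 3 each, exact permutation p = 0.9). In Met-CAT, Phe-GAA, Trp-CCA and Tyr-GTA, dsLacZ replicate 1 had the lowest share of the 6 libraries.

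**Figure D3:**
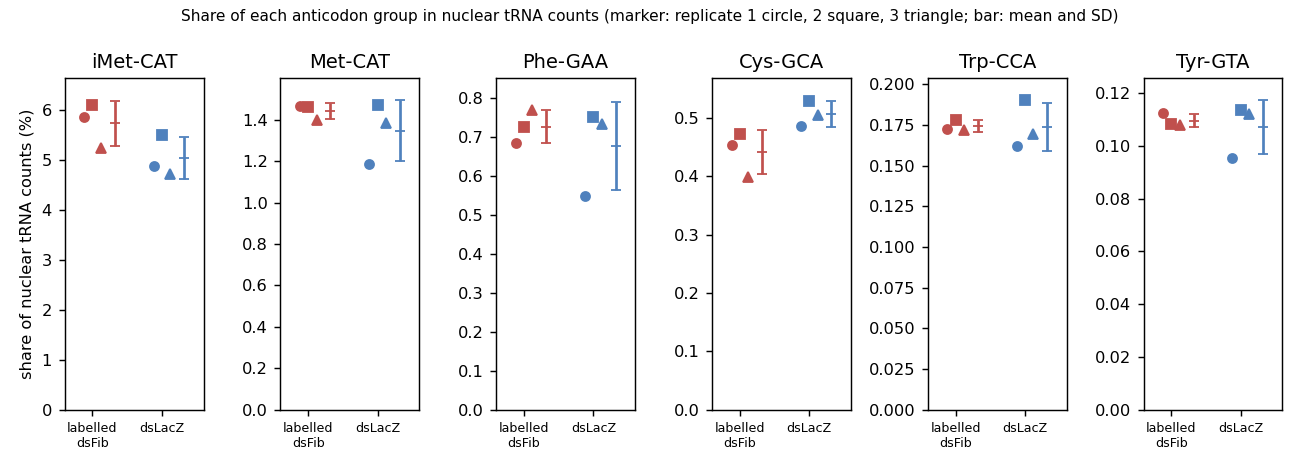
Share of each anticodon group in the nuclear tRNA counts of a library (%, axes from 0), with 1 marker per library (red, labelled dsFib; blue, dsLacZ; circle, square and triangle for replicates 1, 2 and 3) and the mean ± SD of each group of 3. Cys-GCA is the panel in which the groups do not overlap, with 0.399% to 0.472% in the libraries labelled dsFib and 0.485% to 0.529% in dsLacZ.

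At the level of isodecoders, 0 of 13 passed edgeR, beside 1.84% of the 8103 features of that table. DESeq2 and limma-voom each called 0, and 0 lay under an unadjusted p of 0.05, where 16.6% of features did. None was without overlap, against 11.2% of features higher and 12.2% lower. The log2 fold changes ran from -0.26 (Cys-GCA-3) to 0.28 (iMet-CAT-1), with a median of 0.13 and 9 of 13 above 0, where 48.2% of features were. Without dsLacZ replicate 2, 7 of 13 were called higher, beside 2.31% of features, namely iMet-CAT-1, both Met-CAT isodecoders, Phe-GAA-1, Tyr-GTA-1, Trp-CCA-2 and Cys-GCA-2.

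Isodecoder shares within an anticodon group were steady. Met-CAT-1, with 5 copies, took 74.0%, 74.0% and 73.4% of Met-CAT counts in the libraries labelled dsFib, and 74.2%, 74.1% and 73.3% in dsLacZ, so that the groups overlap within 1 percentage point. Its partner Met-CAT-2, a single gene in an intron of promL, took the remaining 25.8% to 26.7% and had 588.9, 485.5 and 595.9 CPM in the libraries labelled dsFib, against 294.9, 778.5 and 394.3 CPM in dsLacZ. Cys-GCA-1, with 4 copies, was as steady, at 73.3% to 74.0% of Cys-GCA counts in the libraries labelled dsFib and 73.5% to 74.1% in dsLacZ.

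The main isodecoder dominated the other groups. Tyr-GTA-1 took 97.9% to 99.4% of its group over all 6 libraries and Trp-CCA-2 took 95.9% to 97.0%. Of Cys-GCA, isodecoder 3 took 13.5% to 16.4%, isodecoder 2 took 7.67% to 10.6% and isodecoder 4 took 1.77% to 2.85%, with overlap between the groups for each. The initiator was the exception to the overlap. Its minor isodecoder, the single gene iMet-CAT-2-1 in an intron of Mmp2 (2R, 9661225 to 9661296, plus strand), took 1.66%, 1.91% and 1.57% of initiator counts in the libraries labelled dsFib, and 2.58%, 2.04% and 2.33% in dsLacZ. All libraries labelled dsFib were lower. This share was not tested, and 20.1% of the 289 nuclear tRNA copy shares were lower without overlap. The gene had fractional counts, such as 1699.66 in replicate 1 labelled dsFib, so its share may also depend on a split of reads with other genes. As a level it had a log2 fold change of -0.12 (SE 0.24, edgeR adjusted p = 0.862).

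At the level of single copies, 44 of the 45 members passed the filter on low counts and 0 of 44 passed edgeR, beside 0.903% of 8302 genes. Limma-voom called 0 and DESeq2 called 1 higher, where it called 1.85% of genes higher. By an unadjusted p under 0.05, 1 copy was higher and 1 was lower, where 7.67% and 8.26% of all genes were. The median log2 fold change was 0.11, with 26 copies above 0 and 18 below (48.3% of all genes lay above 0), against a median of 0.07 for the other nuclear tRNA genes and -0.01 for all genes. The groups did not overlap for 1 copy, higher in the libraries labelled dsFib, and for 0 lower, beside 11% and 12.1% of all genes. Without dsLacZ replicate 2, 13 of 44 copies were called higher, beside 2.59% of genes, and 70 of 244 of the other nuclear tRNA genes were called higher and 3 lower.

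The copy that did not overlap was Met-CAT-1-5 (FBgn0011919; 3R, 6496039 to 6496111, minus strand, in no other gene), the rarest elongator copy. It had 34.75, 37.89 and 46.77 estimated counts in the libraries labelled dsFib, and 12.25, 4.11 and 7.95 in dsLacZ. As levels these were 3.10, 2.83 and 3.25 CPM in the libraries labelled dsFib, and 0.877, 0.336 and 0.568 CPM in dsLacZ. Every library labelled dsFib lay above every dsLacZ library. The copy was 5.04-fold higher (log2 fold change 2.33, SE 0.45, 95% interval 1.31 to 3.36) with an edgeR adjusted p of 0.0546, just above the threshold, so it was not called. DESeq2 called it (adjusted p = 0.00299), edgeR without a filter on low counts called it (adjusted p = 0.014, with 1.25% of genes called higher), and limma-voom did not (adjusted p = 0.0619). With each library left out the log2 fold change was 2.07 to 2.73 and the edgeR adjusted p 0.056 to 0.272. In edgeR the adjusted p was 0.112 with library totals as the scaling and 0.204 with a replicate block. None of these fits called the copy. Met-CAT-1-5 is 1 of 5 copies of isodecoder Met-CAT-1, so its counts depend on the split of reads, which is uncertain. It held at most 0.151% of elongator counts, so it does not weigh on the sum.

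**Figure D4:**
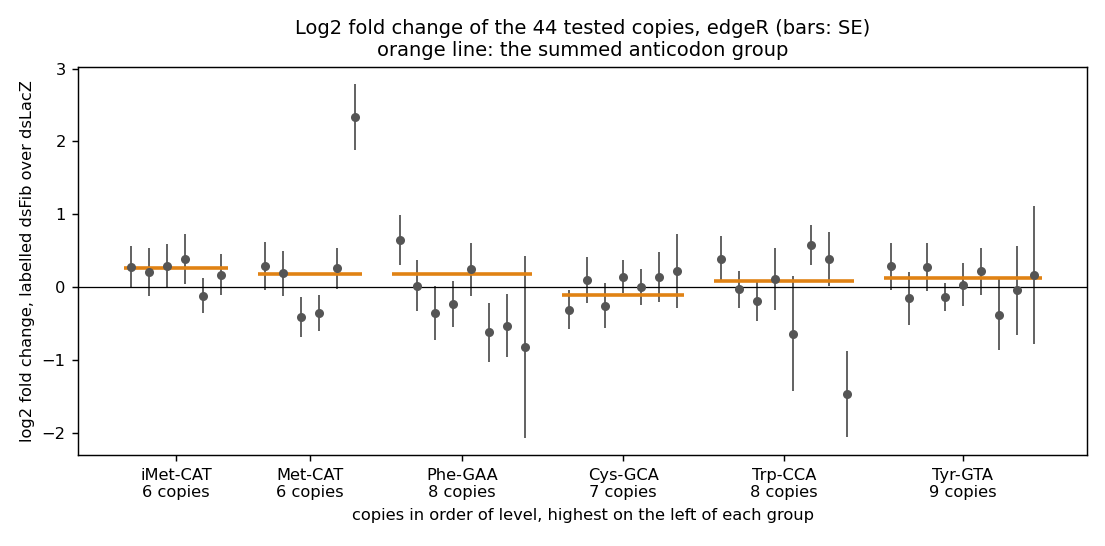
Log2 fold change (libraries labelled dsFib over dsLacZ, edgeR, bars ± SE) of the 44 tested copies by anticodon group, highest level on the left, with an orange line at the value of the summed group. Met-CAT-1-5 at 2.33 is the point farthest above 0 and Trp-CCA-1-2 at -1.47 the point farthest below, and each is the copy with the lowest level in its group.

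The initiator was carried by 4 copies. iMet-CAT-1-5, in an intron of ome (3L, 14674344 to 14674415, plus strand), had 2835, 2547 and 2658 CPM in the libraries labelled dsFib, and 1530, 3487 and 1625 CPM in dsLacZ. iMet-CAT-1-1 (2R, 19725620 to 19725691, minus strand) had 2509, 2128 and 2459 CPM in the libraries labelled dsFib, and 1225, 3338 and 1574 CPM in dsLacZ. iMet-CAT-1-2, its neighbour on the other strand 213 nucleotides away, had 1937, 1839 and 1870 CPM in the libraries labelled dsFib, and 1064, 2481 and 1087 CPM in dsLacZ. All 3 showed the overlap of the group, with log2 fold changes of 0.28, 0.21 and 0.29 and edgeR adjusted p-values of 0.702, 0.803 and 0.702. Their shares of initiator counts also overlapped, at 31.0% to 32.6% for iMet-CAT-1-5, 26.0% to 31.2% for iMet-CAT-1-1 and 21.4% to 23.5% for iMet-CAT-1-2 over all 6 libraries. iMet-CAT-1-3 took 12.3% to 17.7%. iMet-CAT-1-4 lies 330 nucleotides from the leading copy and took at most 0.406%.

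Each copy was also followed as a share of its anticodon group. In all but Cys-GCA, the same copy held the largest share in every library labelled dsFib. Over all members, 5 copy shares were higher and 7 lower without overlap between the groups, out of 45. Over the 289 nuclear tRNA copies with a share, 12.8% were higher and 20.1% lower without overlap, so the members' counts lie near that background. A share of a group adds up to a fixed total, so a higher share of a leading copy goes with lower shares of others.

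Met-CAT-1-3 (3L, 16222031 to 16222103, plus strand) was the leading elongator copy. It took 62.2%, 61.9% and 64.4% of elongator counts in the libraries labelled dsFib, and 56.0%, 59.7% and 57.2% in dsLacZ, without overlap. Its level was 1410, 1158 and 1444 CPM in the libraries labelled dsFib and 640.0, 1798 and 845.2 CPM in dsLacZ, which overlap (log2 fold change 0.29, SE 0.33, edgeR adjusted p = 0.726). The copies Met-CAT-1-1 and Met-CAT-1-2 on 2R took lower shares: Met-CAT-1-1 took 6.72%, 6.55% and 4.57% in the libraries labelled dsFib, and 9.93%, 8.30% and 9.40% in dsLacZ. Met-CAT-1-2 took 3.47% to 4.65% in the libraries labelled dsFib and 5.41% to 7.38% in dsLacZ. As levels, these 2 copies had log2 fold changes of -0.41 (SE 0.28, edgeR adjusted p = 0.514) and -0.36 (SE 0.24, edgeR adjusted p = 0.521).

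The widest difference of share was in phenylalanine tRNA. All 8 of its copies belong to the same isodecoder, so these shares rest on the split of reads, which is uncertain. Phe-GAA-1-6 (FBgn0051588; 3R, 13797953 to 13798025, plus strand) took 52.9%, 55.1% and 49.1% of Phe-GAA counts in the libraries labelled dsFib, and 34.3%, 37.9% and 39.7% in dsLacZ. All libraries labelled dsFib were higher than all dsLacZ libraries. Its level was 560.1, 512.9 and 606.2 CPM in the libraries labelled dsFib, and 180.9, 581.5 and 311.0 CPM in dsLacZ, where dsLacZ replicate 2 lay among the libraries labelled dsFib (log2 fold change 0.65, SE 0.35, 95% interval -0.14 to 1.43, edgeR adjusted p = 0.405). Phe-GAA-1-7, whose gene lies 172 nucleotides away on the other strand, took 2.76%, 4.11% and 5.19% in the libraries labelled dsFib, and 6.56%, 7.09% and 7.57% in dsLacZ. Phe-GAA-1-4 (2R, 17604535 to 17604607, minus strand) took 11.8%, 8.08% and 11.9% in the libraries labelled dsFib, and 16.2%, 15.7% and 15.4% in dsLacZ. Both were thus lower in all libraries labelled dsFib, and their log2 fold changes of -0.62 (SE 0.41) and -0.36 (SE 0.37) did not pass edgeR (adjusted p = 0.505 and 0.691). Phe-GAA-1-5, the neighbour of Phe-GAA-1-4, took 12.2% to 14.6% in the libraries labelled dsFib and 13.1% to 16.9% in dsLacZ, with a log2 fold change of 0.02 (SE 0.35, edgeR adjusted p = 0.988). The rarest copy, Phe-GAA-1-1 on X, had no count in replicates 1 and 2 labelled dsFib and 3.94 CPM in replicate 3, against 0.853 to 3.86 CPM in dsLacZ. By counting error alone, a count of 0 there allows up to 0.257 and 0.234 CPM before TMM scaling. It does not bound reads that were assigned to other copies of the isodecoder.

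**Figure D5:**
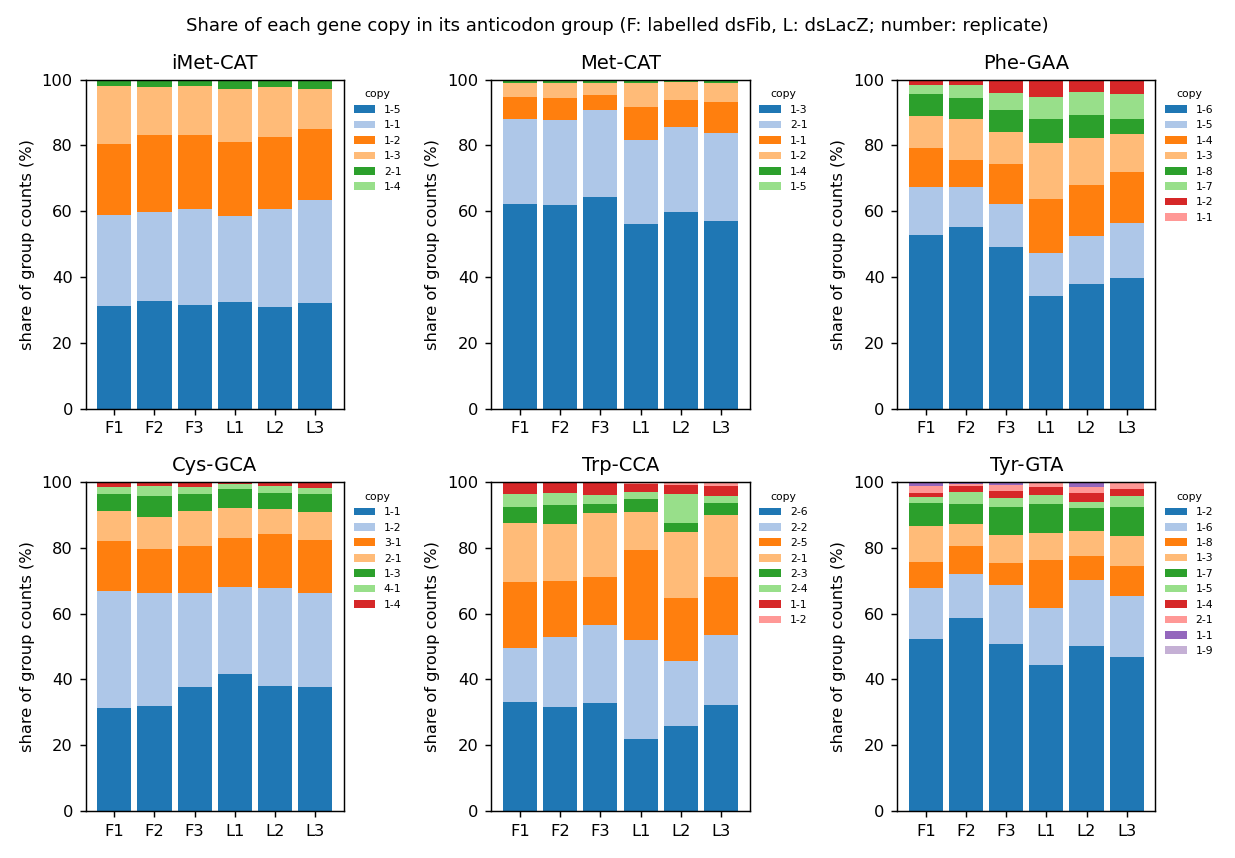
Share of each gene copy in the counts of its anticodon group (%), stacked for the libraries labelled dsFib (F1 to F3) and dsLacZ (L1 to L3). The share of Phe-GAA-1-6 is 49.1% to 55.1% in F1 to F3 and 34.3% to 39.7% in L1 to L3, while the initiator copies keep shares that overlap between the groups apart from the minor iMet-CAT-2-1.

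Tyrosine tRNA rested on a copy with an intron longer than most. Tyr-GTA-1-2 (2L, 2459924 to 2460044, minus strand, with an intron of 48 nucleotides) took 52.1%, 58.7% and 50.9% of Tyr-GTA counts in the libraries labelled dsFib, and 44.2%, 50.3% and 46.7% in dsLacZ. The shares do not overlap, though replicate 3 labelled dsFib lay close to dsLacZ replicate 2, and its level of 90.5, 81.4 and 87.9 CPM in the libraries labelled dsFib overlaps the 40.5, 116.8 and 56.0 CPM in dsLacZ (log2 fold change 0.29, SE 0.33, edgeR adjusted p = 0.722). Tyr-GTA-1-6, 1 of 3 copies in an intron of the gene p on 3R, had 27.1, 18.7 and 30.5 CPM in the libraries labelled dsFib and 16.1, 46.6 and 22.6 CPM in dsLacZ. Tyr-GTA-1-3, next to the leading copy, had 19.3, 9.39 and 14.5 CPM in the libraries labelled dsFib and 7.60, 17.0 and 11.0 CPM in dsLacZ. Both overlap, with log2 fold changes of -0.16 (SE 0.36, edgeR adjusted p = 0.879) and 0.28 (SE 0.33, edgeR adjusted p = 0.74). The member that failed the filter was Tyr-GTA-1-9 (2L, 7711476 to 7711661, plus strand), which has the longest intron, of 113 nucleotides, and overlaps an annotated exon of Ntl. It had no count in any library, which by counting error alone allows up to 0.198 to 0.257 CPM before TMM scaling. Reads shared with Ntl or other copies may have been assigned there, so this does not bound its level.

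Tryptophan tRNA held the copy with the lowest log2 fold change. Trp-CCA-1-2 (2R, 20658104 to 20658175, minus strand, in an intron of Lrt) had 0.619, 0.447 and 1.18 CPM in the libraries labelled dsFib, and 1.02, 3.19 and 2.13 CPM in dsLacZ. The levels overlap between replicate 3 labelled dsFib and dsLacZ replicate 1. Its log2 fold change was -1.47 (SE 0.59, 95% interval -2.80 to -0.13), and it did not pass edgeR (adjusted p = 0.269), DESeq2 (0.328) or limma-voom (0.328). As a share of Trp-CCA counts it took 0.196% to 0.429% in the libraries labelled dsFib and 0.662% to 1.17% in dsLacZ, while its isodecoder partner Trp-CCA-1-1, 141 nucleotides away, took 3.11% to 3.43% and 2.32% to 2.93%. Neither share overlaps between the groups, and their directions are opposite. Summed, isodecoder Trp-CCA-1 had 9.64, 7.53 and 10.7 CPM in the libraries labelled dsFib and 4.68, 14.0 and 7.39 CPM in dsLacZ, which overlap.

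Most tryptophan counts came from Trp-CCA-2 copies. Trp-CCA-2-6 took 31.7% to 33.2% of Trp-CCA counts in the libraries labelled dsFib and 22.0% to 32.1% in dsLacZ, and Trp-CCA-2-2 took 16.5% to 23.8% and 19.7% to 29.9%. Trp-CCA-2-5, in an intron of Pu, took 14.4% to 19.9% in the libraries labelled dsFib and 17.7% to 27.4% in dsLacZ. The log2 fold changes of these 3 copies were 0.38 (SE 0.32), -0.03 (SE 0.25) and -0.18 (SE 0.28), and none passed edgeR (adjusted p = 0.619, 0.972 and 0.8). Trp-CCA-2-3 had 13.6, 13.0 and 7.82 CPM in the libraries labelled dsFib and 6.36, 10.1 and 6.68 CPM in dsLacZ (log2 fold change 0.57, SE 0.28, edgeR adjusted p = 0.353). Trp-CCA-2-4, chosen after its values were seen, was far higher in dsLacZ replicate 2 than elsewhere. It had 10.3, 8.65 and 7.82 CPM in the libraries labelled dsFib, and 3.22, 34.9 and 3.84 CPM in dsLacZ replicates 1, 2 and 3. That gave it 8.98% of Trp-CCA counts in dsLacZ replicate 2, against 2.06% to 3.86% in the other 5 libraries.

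Cysteine tRNA was led by neighbouring copies in Cht7. Cys-GCA-1-1 took 31.3%, 31.9% and 37.6% of Cys-GCA counts in the libraries labelled dsFib, and 41.8%, 38.0% and 37.7% in dsLacZ. The shares do not overlap, though replicate 3 labelled dsFib lay just below dsLacZ replicate 3. Its level was 219.2, 192.5 and 240.6 CPM in the libraries labelled dsFib and 195.1, 410.2 and 203.4 CPM in dsLacZ (log2 fold change -0.31, SE 0.27, edgeR adjusted p = 0.631). Cys-GCA-1-2, 182 nucleotides downstream, took 28.7% to 35.7% in the libraries labelled dsFib and 26.3% to 29.7% in dsLacZ, with a log2 fold change of 0.10 (SE 0.32, edgeR adjusted p = 0.918). Since the sum of the 4 Cys-GCA-1 copies kept its share of the group, the difference between these 2 copies lies within the isodecoder, where the split of reads is uncertain. Cys-GCA-3-1, the only gene of isodecoder 3 and at a distance on 3L (2273744 to 2273815, plus strand), had 106.5, 81.5 and 90.8 CPM in the libraries labelled dsFib and 69.1, 177.8 and 86.8 CPM in dsLacZ (log2 fold change -0.26, SE 0.31, edgeR adjusted p = 0.736).

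The genes that charge, bind, process or transcribe these tRNAs did not pass edgeR in any list, beside the 0.903% of all genes called. Of the 6 cytosolic synthetase genes, which attach the amino acids, 3 lay above 0, and 0 passed at an unadjusted p of 0.05, as 15.9% of all genes did. TyrRS had 35.6, 35.5 and 32.5 CPM in the libraries labelled dsFib and 29.0, 31.1 and 28.9 CPM in dsLacZ, without overlap (log2 fold change 0.22, SE 0.10, edgeR adjusted p = 0.349). The phenylalanine enzyme has 2 kinds of subunit, and beta-PheRS (log2 fold change -0.21, adjusted p = 0.371) and alpha-PheRS (-0.18, adjusted p = 0.605) both had values below 0 in edgeR. Of these, beta-PheRS was lower without overlap and alpha-PheRS overlapped. Over all genes tested, 11% were higher and 12.1% lower without overlap. Of 5 mitochondrial synthetase genes 0 lay under an unadjusted p of 0.05, and MetRS-m, CysRS-m and TyrRS-m had log2 fold changes of -0.16, 0.22 and -0.14.

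Of 12 genes for eIF2, its exchange factor eIF2B and other factors that act on the initiator tRNA, 7 lay above 0. Over all genes 48.3% did. The median log2 fold change of the 12 was 0.08. eIF2D, which can bring tRNA to the ribosome without eIF2 in mammals, had 154.0, 136.8 and 167.5 CPM in the libraries labelled dsFib and 119.6, 131.2 and 127.3 CPM in dsLacZ. These groups do not overlap, and the log2 fold change of 0.28 (SE 0.10) did not pass edgeR (adjusted p = 0.245). eIF1A, which helps to place the initiator, and eIF2Bepsilon, the catalytic subunit of the exchange factor, had log2 fold changes of 0.17 and -0.16 (edgeR adjusted p = 0.376 and 0.383). These too were without overlap, eIF1A higher and eIF2Bepsilon lower, beside 11% and 12.1% of all genes tested.

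The list of tRNA splicing and end processing came nearest to the threshold. By an unadjusted p under 0.05, 2 of 12 genes were higher and 2 lower, beside 7.67% and 8.26% of all genes. RNaseZ, which cuts the trailer off the 3′ end of tRNA precursors, had 100.9, 93.4 and 105.6 CPM in the libraries labelled dsFib, and 69.2, 73.2 and 71.7 CPM in dsLacZ. All libraries labelled dsFib were higher, 1.40-fold (log2 fold change 0.49, SE 0.09, edgeR adjusted p = 0.0527), and DESeq2 called it (adjusted p = 0.00701). Archease and Ddx1 are partners of the RtcB ligase, and neither passed. Archease had 19.1, 17.4 and 10.9 CPM in the libraries labelled dsFib and 11.0, 8.39 and 7.32 CPM in dsLacZ (log2 fold change 0.82, SE 0.25, edgeR adjusted p = 0.175). Ddx1 had 48.3, 42.8 and 43.9 CPM in the libraries labelled dsFib and 57.0, 59.4 and 66.4 CPM in dsLacZ, without overlap (log2 fold change -0.44, SE 0.10, edgeR adjusted p = 0.0885). RtcB itself overlapped, with a log2 fold change of 0.09.

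By an unadjusted p under 0.05, 8.26% of all genes were lower and 7.67% higher. Of the 7 genes found for tRNA methylation and queuosine, 1 was lower and 0 were higher. That was CG6388, the fly Trm1, a guanosine methyltransferase of tRNA, with 40.4, 47.1 and 41.7 CPM in the libraries labelled dsFib and 53.7, 54.6 and 56.1 CPM in dsLacZ (log2 fold change -0.35, SE 0.10, edgeR adjusted p = 0.144). CG5220, a 2′-O-methyltransferase of the anticodon loop of phenylalanine tRNA, and the tRNA methyltransferase gene Mt2 had log2 fold changes of -0.28 and 0.34 (edgeR adjusted p = 0.379 and 0.643). Of 14 genes for RNA polymerase III, its factors and its repressor Maf1, 13 were tested. Maf1 had 48.1, 52.0 and 53.6 CPM in the libraries labelled dsFib and 46.4, 36.3 and 42.3 CPM in dsLacZ, without overlap (log2 fold change 0.30, SE 0.11, edgeR adjusted p = 0.254), and the next by p, Trf and CG12267, had 0.31 and 0.53. Trf was also higher without overlap, while CG12267 overlapped.

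The mitochondrial genome encodes its own tRNAs for the same amino acids. Of these 5, 4 lay above 0, where 48.3% of all genes did. By an unadjusted p under 0.05, 1 was higher, where 7.67% of all genes were. That was mt:tRNA:Phe-GAA, with 222.2, 161.3 and 156.4 CPM in the libraries labelled dsFib and 85.1, 147.1 and 108.6 CPM in dsLacZ (log2 fold change 0.66, SE 0.21, edgeR adjusted p = 0.187). The next by p, mt:tRNA:Cys-GCA and mt:tRNA:Tyr-GTA, overlapped between the groups, with log2 fold changes of 0.64 and 0.51 (edgeR adjusted p = 0.358 and 0.42).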

How the data were processed

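Per the file headers, the deposited values of each gene are a CPM, a TPM and the estimated count behind them. The authors' CPM equals their estimated count scaled to the library total, while their TPM is a single multiple of the CPM per library for all members, so it does not divide by each member's own length. Cutadapt 3.4, STAR, Bowtie2 and the build dm6 are named in the submitters' processing notes, with no roles; the table names point to the counter CoCo, whose settings and use of strand the sources used here do not give.

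Estimated counts were rounded and tested with edgeR 4.0.16 in R 4.3.3 (filterByExpr, TMM, quasi-likelihood test with the group as its single term). Benjamini-Hochberg adjustment ran over all features tested, with a threshold of 0.05. The same test ran on the whole table with nuclear tRNA genes summed by isodecoder and by anticodon, at the library sizes and TMM factors of the gene table. It was tested on simulated data first. Levels are TMM-scaled CPM, differences are libraries labelled dsFib over dsLacZ. Shares within a library were compared by a two-sided exact permutation test (SciPy 1.17.1). DESeq2 1.42.0, limma-voom (limma 3.58.1), other scalings and filters, another denominator for shares, a replicate block and leaving out each library were the alternatives. Depth limits precision by counting error alone. The limit that a count of 0 allows, 3 counts, is 0.198 to 0.257 CPM of the library total before TMM scaling. For a copy that shares reads this limit does not bound the level. Gene positions come from the Ensembl annotation of BDGP6, which has dm6 coordinates and held 23851 of the 23932 genes. A member overlapping another gene, or within reach of a near copy, may share its reads.

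Members and gene lists were chosen with earlier results of these data known. Named copies are the 3 highest of each anticodon group and the 3 with the smallest p; others, namely those whose shares did not overlap, iMet-CAT-1-3, iMet-CAT-1-4, Phe-GAA-1-1, Trp-CCA-2-4 and Tyr-GTA-1-9, were picked after their values were seen. Of each pathway list the 3 genes with the smallest p are named. RtcB and the marker genes named were added after their values were seen. Of 14 names for methylation and queuosine, 7 were found.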

Additional observations from a re-analysis of the deposited data

How the results depend on the processing

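Summing tRNA copies raised the calls over all features from 75 by gene to 149 by isodecoder and 160 by anticodon, with 0 of the members at each level. Among single copies DESeq2 called 1 and edgeR without a filter called 1, Met-CAT-1-5 in both. Leaving out a library gave 0 to 13 copies, 0 to 7 isodecoders and 0 to 5 anticodon groups. Every call in these ranges came without dsLacZ replicate 2. The replicate block called 0 at each level among the members, and 1, 13 and 15 over all features. Same-numbered libraries deviated with correlations of -0.044, -0.212 and -0.114. Libraries of unlike number were not compared in this way, so these values do not settle whether the numbers pair libraries. With the block, Cys-GCA had a log2 fold change of 0.002 and Trp-CCA-2-2 of 0.005, both reversed in sign, and limma-voom gave Trp-CCA-2-2 0.035. Scaling by library totals called 31, 33 and 36 features in the 3 tables.

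With a library left out, the sign of some log2 fold changes turned. The ranges were -0.31 to 0.36 for Cys-GCA, -0.064 to 0.70 for Met-CAT, -0.10 to 0.71 for Phe-GAA, -0.14 to 0.61 for Trp-CCA and -0.11 to 0.61 for Tyr-GTA. Among copies they were -0.48 to 0.13 for Cys-GCA-1-1, -0.14 to 0.63 for Cys-GCA-1-2, -0.50 to 0.25 for Cys-GCA-3-1, -0.061 to 0.69 for Met-CAT-2-1, -0.63 to 0.17 for Phe-GAA-1-4 and -0.30 to 0.51 for Phe-GAA-1-5. They were -0.22 to 0.31 for Trp-CCA-2-2, -0.41 to 0.23 for Trp-CCA-2-5, -0.43 to 0.40 for Tyr-GTA-1-6 and -0.041 to 0.76 for iMet-CAT-1-1. Differences in shares of nuclear tRNA ran from -0.0154 to 0.0866 percentage points for Phe-GAA, -0.0058 to 0.0085 for Trp-CCA and -0.0035 to 0.0058 for Tyr-GTA. The cause of these turns was not tested. With all counts of a library as the denominator the 6 shares kept their sign, from -0.0042 for Cys-GCA to 0.147 percentage points for iMet-CAT. iMet-CAT stayed above 0 under all alternatives run, at 0.06 to 0.79. The values of named copies under each alternative were added after the data were seen. DESeq2 gave Trp-CCA-2-4 no p.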
